A study of Mus musculus with 2 samples.

Results

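The chemokine genes examined here are 8 ligands that activated B cells are known to make, Ccl3, Ccl4, Ccl5, Ccl17, Ccl22, Cxcl9, Cxcl10 and Cxcl16. Every probe set that the platform annotation gives to only 1 of these genes was taken, which gave 10 of the 45101 probe sets on the array. Cxcl9 and Cxcl16 had 2 probe sets each and the other 6 genes had 1. Of the 8 genes, 6 passed the filter on low values that left 10717 of 18193 measured genes.

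The series compared cultured and activated B cells of mir-155 knockout mice with those of wild-type mice, on 1 Affymetrix 3′ expression array per genotype. The first array has the title mir155KO and the genotype entry mir155 KO, and the second the title mir155WT and the genotype entry mir155 WT, but the source names give the opposite genotype for both. The arrays are named by their titles here, differences are the array titled mir155KO minus the array titled mir155WT on the log2 scale, and every sign turns over if the source names are right. Both groups are labelled as B cells of male mice on a C57 background from the Jackson Laboratory, both received cycloheximide, an inhibitor of translation, at 100 ug/ml for 8 min before harvest, and the growth protocol describes progenitors kept in G-CSF and SCF for 6 days. The agent that activated the B cells, the deleted part of the mir-155 gene and whether animals were pooled are not stated in the labels.

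Chemokines are small secreted proteins that guide leukocytes along concentration gradients by binding receptors coupled to G proteins, and they are grouped by the spacing of their first cysteines into CC and CXC families. Activated B cells use CCL3, CCL4, CCL17 and CCL22 to draw T cells and other partners towards them, while CXCL9 and CXCL10 are classical products of interferon signalling. NF-kB and interferon regulatory factors are known to act at the promoters of several of these genes. miR-155 is a microRNA that is induced on B cell activation and lowers the transcripts it pairs with through its seed.

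The sequences shown here are the mature microRNA that the comparison concerns and the 250 bases upstream of the annotated start of 4 of the chemokine genes. RefSeq windows were held for 5 of the 8 genes, and the 4 printed are Cxcl10, whose difference was the largest, its neighbour Cxcl9, Ccl3, and Ccl22, which differed least among the expressed chemokine genes. Capitals in the microRNA mark its seed, bases 2 to 8, and capitals in the upstream windows mark matches to an interferon-stimulated response element or an NF-kB site.
mmu-miR-155-5p, chr16:84714143-84714165, plus strand, GRCm38.p6: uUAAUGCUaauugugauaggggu
Cxcl10, chr5:92348890-92349139, minus strand, GRCm38.p6: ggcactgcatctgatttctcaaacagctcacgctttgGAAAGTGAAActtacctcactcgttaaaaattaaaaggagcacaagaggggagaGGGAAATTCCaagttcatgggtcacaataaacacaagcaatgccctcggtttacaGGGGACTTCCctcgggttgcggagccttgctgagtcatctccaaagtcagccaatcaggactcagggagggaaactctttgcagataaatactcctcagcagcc
Cxcl9, chr5:92328080-92328329, minus strand, GRCm38.p6: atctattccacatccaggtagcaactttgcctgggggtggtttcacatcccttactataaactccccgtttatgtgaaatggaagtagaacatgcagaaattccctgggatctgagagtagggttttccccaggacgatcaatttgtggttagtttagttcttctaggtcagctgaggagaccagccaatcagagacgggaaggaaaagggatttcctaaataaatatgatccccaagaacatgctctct
Ccl3, chr11:83649379-83649628, minus strand, GRCm38.p6: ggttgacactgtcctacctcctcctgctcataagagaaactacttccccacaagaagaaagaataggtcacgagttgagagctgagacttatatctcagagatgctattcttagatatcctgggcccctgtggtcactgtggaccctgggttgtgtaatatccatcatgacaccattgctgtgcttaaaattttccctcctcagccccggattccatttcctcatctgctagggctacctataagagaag
Ccl22, chr8:94745434-94745683, plus strand, GRCm38.p6: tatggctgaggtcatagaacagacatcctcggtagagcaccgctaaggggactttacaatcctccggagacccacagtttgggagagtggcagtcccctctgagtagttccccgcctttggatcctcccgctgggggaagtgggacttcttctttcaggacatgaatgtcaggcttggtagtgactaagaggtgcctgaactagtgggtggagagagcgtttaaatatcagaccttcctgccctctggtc

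With 1 array per title no difference could be set against replicate spread, so no p-value is given and differences are described by size. The authors had brought both arrays to nearly the same distribution, with sorted values at most 0.063 apart. Mir155hg, the host transcript of miR-155, had a level of 10.88 on the array titled mir155KO and 6.63 on the array titled mir155WT, so the targeted gene went against the titles; whether its probe set falls inside the deleted stretch was not determined here. A gene counted as expressed where its mean over both arrays was at or above 6.71, the array-wide median with control probe sets left out. Disagreement between probe sets of 1 gene served as a technical measure of error, taken between its highest pair within a range of levels. The pair differed in its log2 difference by a median of 0.06 and a 95th percentile of 0.22 at levels of 9 or above (2287 genes), by 0.13 and 0.40 between 6.71 and 9 (1992 genes), and by 0.18 and 0.54 below 6.71 (3302 genes). It holds no variation between animals or cultures.

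Cxcl10, Ccl5 and Ccl3 were lower on the array titled mir155KO by 0.5 or more, Ccl4 and Cxcl16 were lower by less, and Ccl22 and Ccl17 were within 0.1 of 0. Among all expressed genes, 1.31% were lower by 0.5 or more and 0.681% were higher by as much. Of the 6 expressed chemokine genes, 3 were lower by 0.5 or more and 0 were higher by that step. The difference of the 6 had a median of -0.55, against 0.03 for all 10717 expressed genes.

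**Figure D1:**
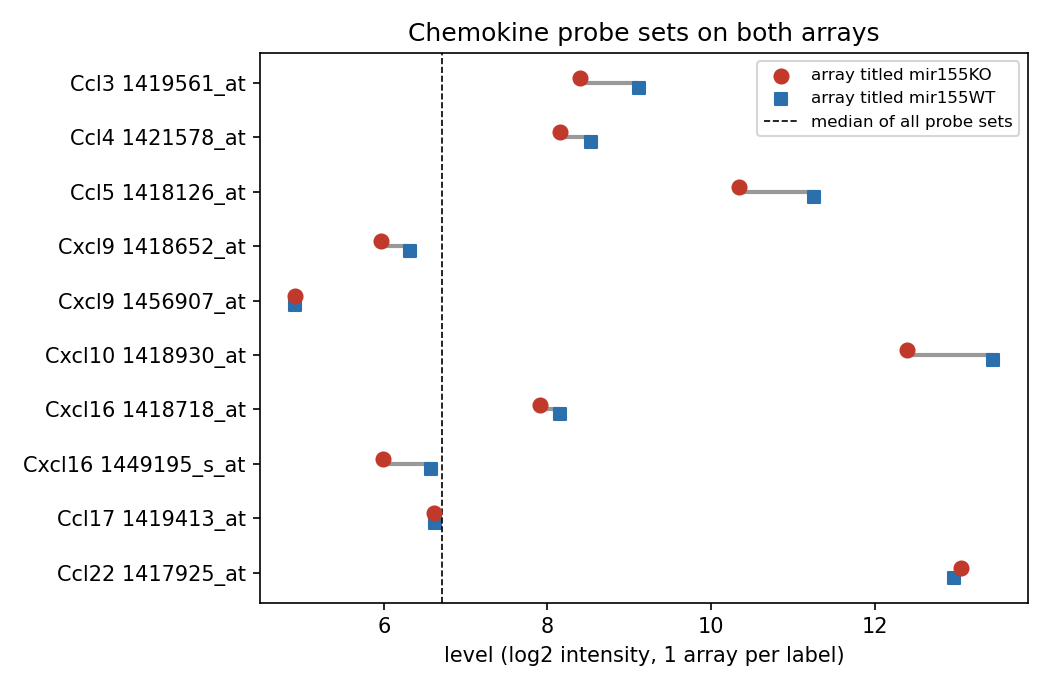
Levels (log2 intensity) of the 10 chemokine probe sets, with circles for the array titled mir155KO and squares for the array titled mir155WT; each point is 1 array, and the dashed line is the array-wide median without controls. Circles lie to the left of squares for Ccl3, Ccl4, Ccl5, Cxcl10, Cxcl16 and the first probe set of Cxcl9, and both symbols nearly coincide for Ccl17 and Ccl22.

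Cxcl10, the interferon-induced ligand of CXCR3 that attracts activated T cells, had a level of 12.39 on the array titled mir155KO and 13.44 on the array titled mir155WT. Its difference of -1.05 was a 2.07-fold lower intensity and the only one of the 8 past 2-fold, a size that 0.14% of expressed genes reached in the lower direction and 0.0187% in the higher. It ranked 13th from the lowest of the 10717 expressed genes. The difference was several times the 95th percentile of the probe set disagreement at its level, 0.22.

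Cxcl9, another CXCR3 ligand and a classical product of interferon gamma signalling, had a level of 5.96 on the array titled mir155KO and 6.32 on the array titled mir155WT, a difference of -0.36. Its second probe set stood at 4.91 on both arrays, with no difference. Both probe sets were under the level for expression on both arrays, and -0.36 lay inside the disagreement found at such levels, 0.54. A change in Cxcl9 was therefore not measurable here.

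Cxcl10 and Cxcl9 are neighbours on chromosome 5, at positions 92346638 to 92348889 and 92321331 to 92328079 of GRCm38.p6. Cxcl11, the next gene of this group at 92359544 to 92363296, is annotated there as a transcribed pseudogene. Its level was 6.98 on the array titled mir155KO and 7.40 on the array titled mir155WT, a difference of -0.42. Its second probe set, under the level for expression, differed by -0.04.

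Ccl5, also called RANTES, attracts T cells and monocytes. Its level was 10.34 on the array titled mir155KO and 11.26 on the array titled mir155WT. The difference of -0.92 was a 1.89-fold lower intensity, the 21st lowest among expressed genes, and lay beyond the 0.22 of probe set disagreement.

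Ccl3 and Ccl4, the macrophage inflammatory proteins MIP-1 alpha and MIP-1 beta, are close relatives that are produced within hours of B cell receptor stimulation. Ccl3 had a level of 8.39 on the array titled mir155KO and 9.12 on the array titled mir155WT, a difference of -0.73 or a 1.66-fold lower intensity, and ranked 45th from the lowest. Ccl4 had a level of 8.15 on the array titled mir155KO and 8.53 on the array titled mir155WT, a difference of -0.38 or a 1.30-fold lower intensity, and ranked 289th. At these levels the 95th percentile of probe set disagreement was 0.40, so the difference of Ccl3 lay beyond it and that of Ccl4 just inside. After quantile normalization or with a loess curve taken off, Ccl4 stood at -0.43, beyond 0.40. Whether the Ccl3 and Ccl4 differences are themselves unequal was not tested.

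Ccl3, Ccl4 and Ccl5 lie in 1 cluster of CC chemokine genes on chromosome 11, Ccl3 at 83647843 to 83649378 and Ccl5 at 83525778 to 83530518. The annotated span of Ccl4, 83648624 to 83664683, overlaps Ccl3, and how far the probe sets are specific was not examined. Ccl9 and Ccl6, also of this cluster, were under the level for expression on both arrays and differed by -0.15 and -0.11.

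Cxcl16 is made as a membrane protein that binds CXCR6 and scavenges oxidised lipoprotein, and it is shed by ADAM10. Its brighter probe set had a level of 7.91 on the array titled mir155KO and 8.15 on the array titled mir155WT, a difference of -0.24, or a 1.18-fold lower intensity. The second probe set had levels of 5.98 on the array titled mir155KO and 6.58 on the array titled mir155WT, a difference of -0.59, but lay under the level for expression on both arrays. Both sets were lower on the array titled mir155KO and they differed in size by more than the gene's main value. The main difference was inside the probe set disagreement of 0.40.

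Ccl22 and Ccl17 are the ligands of CCR4, through which regulatory and helper T cells are attracted, and both are induced by interleukin 4 and CD40. Ccl22 had a level of 13.06 on the array titled mir155KO and 12.97 on the array titled mir155WT, a difference of 0.08 that lay inside the disagreement of 0.22 at its level. This high level stood at percentile 98.4 of the array titled mir155KO and 98.3 of the array titled mir155WT. Ccl17 stood at 6.61 on the array titled mir155KO and 6.63 on the array titled mir155WT, a difference of -0.01, and was under the level for expression on both arrays. The genes lie close together on chromosome 8, Ccl22 at 94745684 to 94751388 and Ccl17 at 94809380 to 94812038, with the chemokine gene Cx3cl1 (-0.05) between them.

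**Figure D2:**
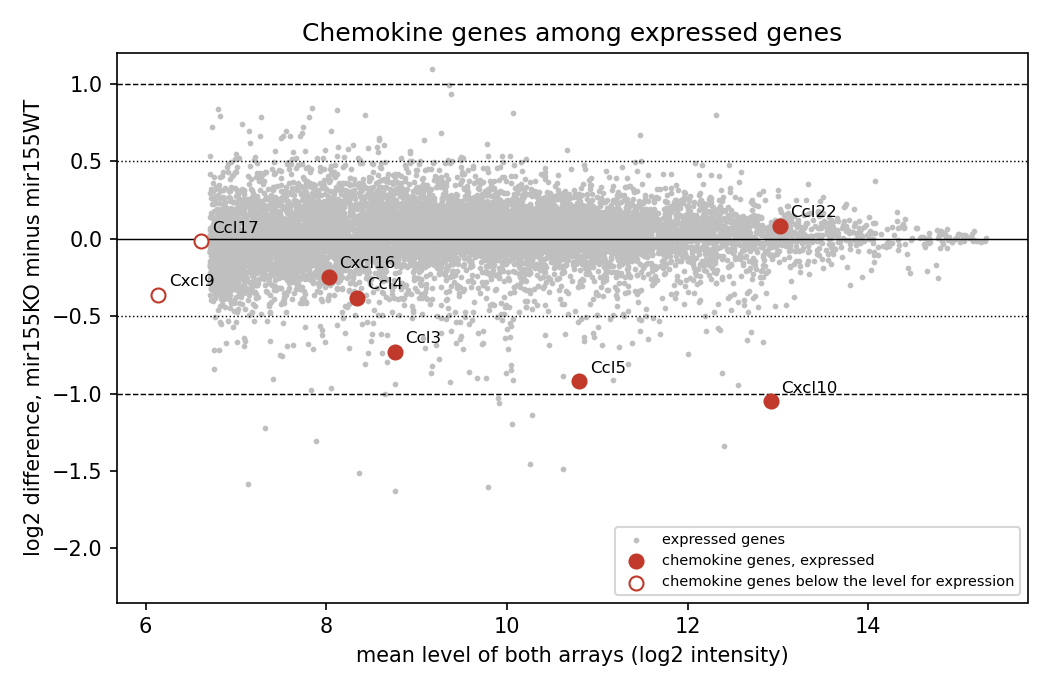
Difference (log2, array titled mir155KO minus array titled mir155WT) against mean level of both arrays (log2 intensity) for the expressed genes in grey and the 8 chemokine genes in red, open where under the level for expression; dotted lines mark differences of 0.5, dashed lines mark 2-fold, and Mir155hg at 4.25 is off the scale. Cxcl10, Ccl5 and Ccl3 lie below the lower dotted line, and Ccl22 lies at a level close to that of Cxcl10 but near 0.

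Genes that surround the chemokine genes were too few for a comparison of shares past 0.5. Within 100 kb of the 8 genes lay 29 other measured genes outside the chemokine family, 23 of them expressed. Of these 11 were lower on the array titled mir155KO, 0 by 0.5 or more, and their differences ran from -0.33 (Med11, a Mediator subunit, beside Cxcl16) to 0.24 (Wfdc21) with a median of 0.00. Among all expressed genes 42.1% were lower and 1.31% were lower by 0.5 or more. A count of 0 among 23 genes therefore does not set the neighbours apart from all expressed genes. Next to Cxcl10, the nucleoporin gene Nup54 differed by 0.10 and Sdad1 by 0.18.

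The rest of the chemokine ligand family was described from a list of 30 further ligands, of which 27 were measured and 10 expressed. All 10 expressed ligands were lower on the array titled mir155KO, 0 by 0.5 or more, with a median of -0.16, against 42.1% lower among all expressed genes. That share is not matched by level. All 10 lay under the 75th percentile of 8.84. At or above it 36.9% of genes were lower, so among expressed genes under it, where the 10 lay, the share was above 42.1%. Apart from Cxcl11, the differences of the 10 lay inside the probe set disagreement of 0.40 found between 6.71 and 9. The lowest were Cxcl11 (-0.42) and Cxcl2 (-0.35), a neutrophil attractant with levels of 8.16 on the array titled mir155KO and 8.52 on the array titled mir155WT. The highest were Ccl25 (-0.0013) and Cx3cl1 (-0.05), the membrane-bound fractalkine. Cxcl1, a second neutrophil attractant, differed by -0.07 and -0.42 in its 2 expressed probe sets. Cxcl3, named after its values were seen, differed by -1.24 with levels of 4.54 on the array titled mir155KO and 5.77 on the array titled mir155WT, both under the level for expression.

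Receptors did not lie to one side. Of 21 measured chemokine receptor genes 10 were expressed, 4 lower, 5 higher and 1 with identical values, with a median of 0.03. After quantile normalization 6 were lower and 4 higher, and with a loess curve of difference on level taken off 5 and 5. The highest were Ackr3 (0.74), a scavenging receptor for CXCL12 whose level was 7.44 on the array titled mir155KO and 6.70, just under the level for expression, on the array titled mir155WT, and Cxcr4 (0.18), the signalling receptor for the same ligand. The lowest were Ccrl2 (-0.27), a chemerin-binding relative of the chemokine receptors, and Ccr9 (-0.18), which directs lymphocytes to the gut. Ccr7 (-0.08) and Cxcr5 (-0.18), which place B cells within lymphoid organs, had levels above 11 on both arrays.

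The receptors of the 8 ligands were mostly under the level for expression. Cxcr3, the receptor of Cxcl9 and Cxcl10, had a level of 6.59 on the array titled mir155KO and 6.65 on the array titled mir155WT. Ccr4, the receptor of Ccl17 and Ccl22, stood at 6.33 on the array titled mir155KO and 6.18 on the array titled mir155WT. Cxcr6, the receptor of Cxcl16, stood at 5.40 on the array titled mir155KO and 5.86 on the array titled mir155WT. Ccr1, a receptor of Ccl3 and Ccl5, had a level of 6.26 on the array titled mir155KO and 7.09 on the array titled mir155WT. Its mean was just under the level for expression, its difference was -0.83, and its second probe set differed by -0.25.

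Proteases that release or trim chemokines were near 0 with 1 exception. Of 9 measured genes 5 were expressed, 3 lower and 2 higher, with a median of -0.08, and with either scaling alternative all 5 were lower. The same scalings moved all expressed genes, of which 50.6% were lower after quantile normalization and 52.6% with the loess curve, against 42.1% as deposited. Adam10, the sheddase of CXCL16, differed by 0.01, and the related sheddase gene Adam17 by -0.17. Dpp4, which trims the amino end of CXCL10 and CCL22, differed by -0.08, and the lysosomal protease gene Ctsd by 0.03. Mmp13, a collagenase, had a level of 6.34 on the array titled mir155KO and 7.92 on the array titled mir155WT, a difference of -1.59, and was under the level for expression on the array titled mir155KO.

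By its main probe set, no measured gene of the pathways known to induce these ligands differed by 0.5 or more. Of 15 measured interferon signalling genes 13 were lower on the array titled mir155KO and 2 higher, with a median of -0.10. Among all expressed genes 42.1% were lower. With only plain _at probe sets 7 of 10 interferon signalling genes were lower and 3 higher, with a median of -0.08. All 15 were lower with that loess curve taken off, which also put 52.6% of all expressed genes below 0. The 2 expressed probe sets of Ifnar1 went opposite ways, at -0.27 and 0.18. The lowest were Irf7 (-0.33), the main regulator of type I interferon genes, and Stat2 (-0.33), a part of the factor that binds the response element, and the highest were the receptor chain gene Ifngr2 (0.04) and the kinase gene Tyk2 (0.01). In the NF-kB list 7 of 12 genes were lower and 5 higher, with a median of -0.05, from Nfkbib (-0.26) and Rela (-0.14) to Rel (0.03), Bcl3 (0.07) and the kinase gene Ikbkb (0.11). In the interleukin 4 list 1 of 5 expressed genes was lower, with a median of 0.05, from Stat6 (-0.01) and Jak3 (0.01) to Il4ra (0.18) and Fcer2a (0.37), the low-affinity IgE receptor. With only plain _at probe sets the NF-kB median was 0.03, so its direction depended on the probe sets. Second expressed probe sets differed by 0.06 for Nfkbib, -0.12 for Stat2, -0.20 for Tyk2 and 0.51 for Fcer2a, and the 5 of Ikbkb ran from -0.15 to 0.11.

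**Figure D3:**
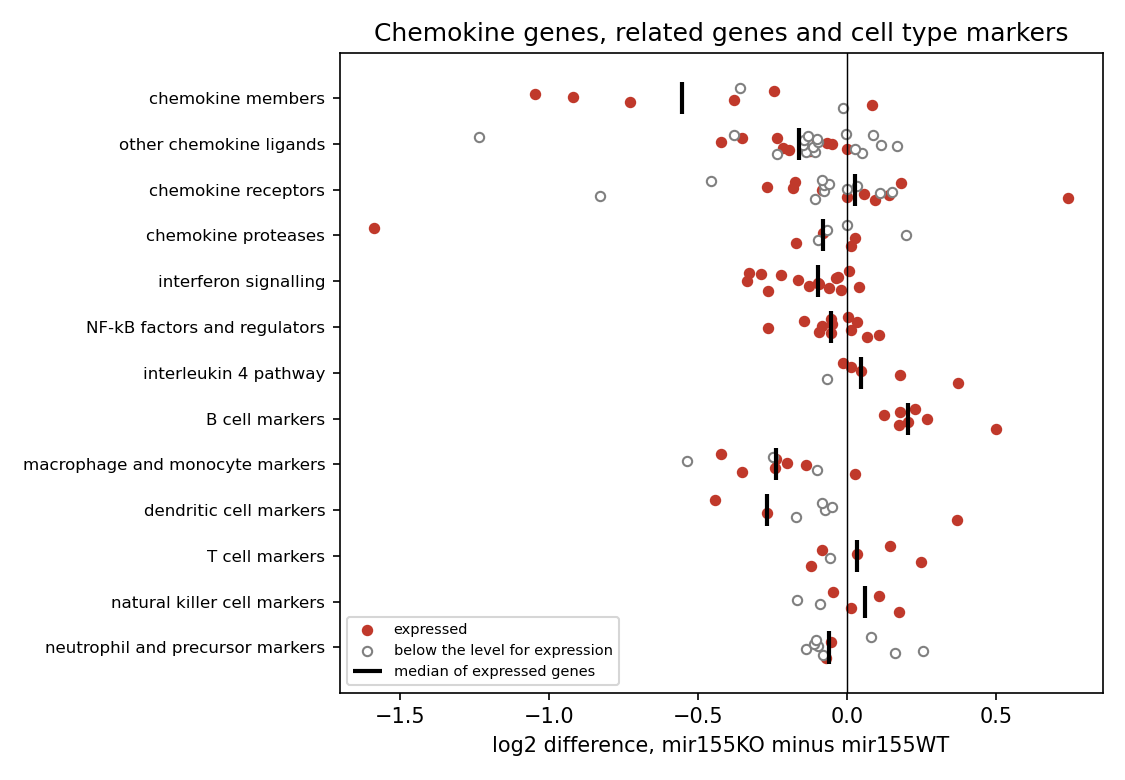
Difference (log2, array titled mir155KO minus array titled mir155WT) of each measured gene in the chemokine lists, the pathway lists and the cell type marker lists; filled points are expressed, open points are under the level for expression, and bars are medians of expressed genes. The chemokine genes have the lowest median, -0.55, and the B cell markers lie to the right of 0.

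Markers of other cells moved with the ligands in part. All 7 measured B cell markers were expressed and higher on the array titled mir155KO, with a median of 0.20. Among all expressed genes 6099 of 10717 were higher, and 3955 of 6306 at or above the 75th percentile of 8.84. By main values Blk (0.50) and Cd79b (0.27) lay beyond the probe set disagreement of 0.22 at levels of 9 or above. Cd79a (0.20), Ms4a1 (0.18), Cd22 (0.17) and Ebf1 (0.12) lay inside it, and Pax5 (0.23) inside the 0.40 found between 6.71 and 9. Of 7 expressed macrophage and monocyte markers 6 were lower, with a median of -0.24, and the 10 measured had a median level of 6.87 on the array titled mir155KO and 7.12 on the array titled mir155WT. They included Mpeg1 (-0.42), Cd14 (-0.35), Lyz2 (-0.24) and Csf1r (-0.14, and -0.54 and -0.24 in its other expressed probe sets), while Adgre1 was 0.03 and Cd163 (-0.10) was far under the level for expression on both arrays. Mpeg1, at 12.12 on the array titled mir155KO and 12.55 on the array titled mir155WT, lay beyond the probe set disagreement of 0.22. Its level stood far above the rest of the list. The next highest was Csf1r, at 7.52 on the array titled mir155KO and 7.65 on the array titled mir155WT. Which cells the Mpeg1 signal came from was not tested. The main values of the other expressed macrophage and monocyte markers lay between 6.71 and 9 and inside the disagreement of 0.40 found there. The Csf1r probe set at -0.54 lay beyond 0.40. Fcgr1 (-0.20) was under the level for expression on the array titled mir155KO, at 6.69. Macrophages and dendritic cells are known sources of CCL3, CCL5, CXCL10 and CCL22.

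Of 7 measured dendritic cell markers 3 were expressed, Zbtb46 (-0.44), Flt3 (-0.27) and Batf3 (0.37). The other expressed probe sets of Zbtb46 differed by -0.50 and -0.25. Zbtb46 and Flt3 lay beyond the probe set disagreement of 0.22 at levels of 9 or above. Batf3 lay inside the 0.40 found between 6.71 and 9. All 7 measured markers had a median level of 6.17 on the array titled mir155KO and 6.24 on the array titled mir155WT. Natural killer and T cells also make CCL3, CCL4 and CCL5. The expressed T cell markers had a median of 0.04 (5 genes) and the natural killer markers one of 0.06 (4 genes), while over all 6 measured genes of each list the medians were -0.011 and -0.017. Of 10 neutrophil and precursor markers 2 were expressed, Camp (-0.07) and Prtn3 (-0.05). The part of macrophages and dendritic cells in the chemokine differences was not tested, and in bulk RNA fewer cells of a type and less RNA per cell cannot be told apart.

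The upstream windows printed above were searched on both strands for 3 motifs, GAAA with any 2 bases and a second GAAA for the interferon-stimulated response element, GGG with any 3 bases and TTCC for an NF-kB site and TGANTCA for an AP-1 site. Among the 5 chemokine genes with a window, Cxcl10 alone held any of them, and it held all 3. The response element GAAAGTGAAA began 213 bases before the start, and the NF-kB matches GGGAAATTCC and GGGGACTTCC began 159 and 104 bases before it. The AP-1 match TGAGTCA began 74 bases before the start, and the matches did not overlap. Of 32851 windows of this length, 2.98% held the response element, 4.65% the NF-kB site, 6.75% the AP-1 site and 0.110% both of the first 2.

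The motifs were chosen after the differences were known, so the next values are a description of these arrays. Of 280 expressed genes with the response element, 54.6% were lower on the array titled mir155KO, 3.57% were lower by 0.5 or more and 1.79% were higher by as much. Of all 8684 expressed genes with a window, 41.7% were lower, 1.30% were lower by 0.5 or more and 0.622% were higher by as much. Both shares past 0.5 were thus larger with the element. Of 531 expressed genes with the NF-kB site, 42.9% were lower, 3.20% by 0.5 or more, and 0 were higher by as much. Of 461 expressed genes with the AP-1 site, 48.8% were lower, 3.90% by 0.5 or more, and 0.217% were higher by as much. The share lower by 0.5 or more was above 1.30% with each of the 3 motifs. These shares rested on 10, 17 and 18 genes, in the order given, and Cxcl10 was counted in each. In the 19 expressed genes with both the response element and the NF-kB site, 12 were lower, the lowest being Cxcl10, the oligoadenylate synthetase gene Oas3 (-0.68) and Bst2 (-0.31), which encodes tetherin, and the highest Gpr19 (0.31).

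**Figure D4:**
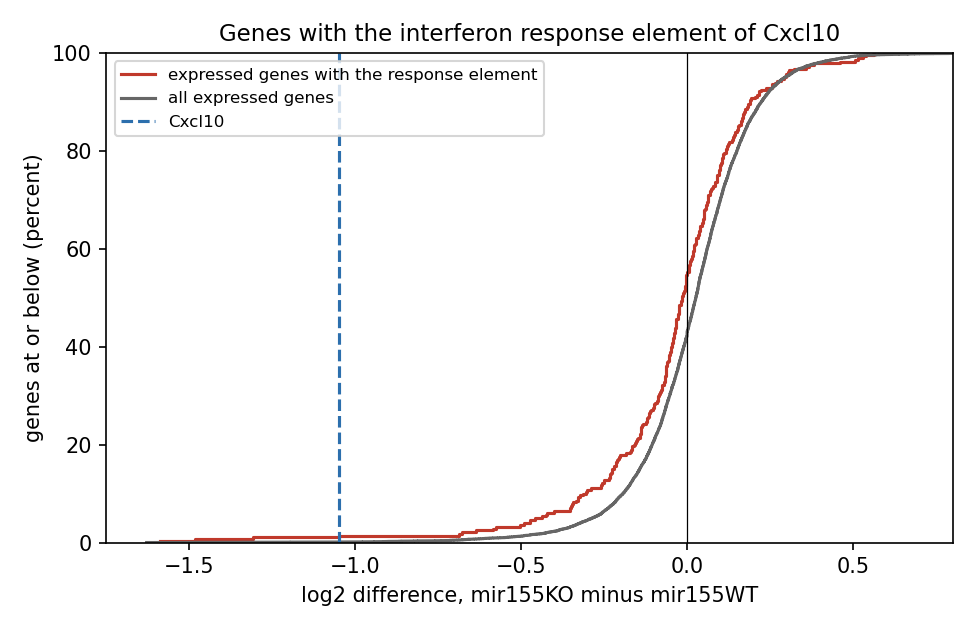
Cumulative share of genes (percent) at or below each difference (log2, array titled mir155KO minus array titled mir155WT) for the 280 expressed genes whose upstream window holds the response element, in red, and for all 10717 expressed genes, in grey; the dashed line is Cxcl10, and differences above 0.8 are off the scale. The red curve lies above the grey one up to about 0.2, with 54.6% against 42.1% of genes below 0.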

How the data were processed

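Total RNA was extracted with Trizol and labelled with biotin by the Affymetrix 3′ IVT Express kit, per the labels' protocols. The authors deposited 1 table of log2 intensities for 45101 probe sets on 2 arrays. The log2 unit was read from the values, and how it was summarised and normalized is not given in the sources used here. Of the probe sets 34945 named 1 gene, 932 several and 9160 none, by the platform's annotation, and 64 were controls. All 8 chemokine genes matched mouse RefSeq (GRCm38.p6) by Entrez number.

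Each gene took its probe set with the highest mean, and genes at or above 6.71 counted as expressed. A gene was called past a log2 difference of 1 (2-fold) or 0.5. With 1 array per title there was no test, and precision is limited by having so few arrays. The genes and lists were chosen with earlier results of these data known. All probe sets of the 8 genes were named, with, for every pathway list, its 2 highest and its 2 lowest expressed genes, Mir155hg, and the 3 expressed genes nearest to the largest chemokine difference. Other genes were named after their values were seen. Listed symbols with no singly named probe set, 16 in all, were not analysed here.

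Motifs were searched in RefSeq windows of 250 bases upstream. The gene summary and the calls were tested on simulated data. Alternatives were the mean of probe sets, plain _at probe sets, quantile normalization, a loess curve of span 0.3 subtracted, no filter, and a filter at the 75th percentile. Values were computed in Python 3.11.15 with NumPy 2.4.6 and pandas 2.3.3, the loess curve with statsmodels 0.14.6, and figures with matplotlib 3.10.9.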

Additional observations from a re-analysis of the deposited data

How the results depend on the processing

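The 6 alternatives gave 67 values for 14 results, of which 60 stayed within 0.084 on the log2 scale (the median disagreement of 2 expressed probe sets of a gene) or, for counts, within 1.5 times, 7 moved further and 0 called differences changed sign. With the mean of probe sets Cxcl9 was -0.18 and Cxcl16 -0.42. Without the filter the median was -0.37 for the chemokine genes and -0.060 for receptors. With the filter at the 75th percentile these medians were -0.92 and -0.13, 10 expressed genes instead of 17 were past 2-fold, and no chemokine ligand outside the 8 was left, so that median has no value there. Over the 4 alternatives that recompute differences Cxcl10 ran from -1.07 to -1.05, Ccl5 from -0.96 to -0.92, Ccl3 from -0.78 to -0.73, Ccl4 from -0.43 to -0.38, Ccl22 from 0.06 to 0.08 and Ccl17 from -0.01 to 0.01. Each of these genes has 1 probe set, a plain _at one, so the mean of probe sets and the plain _at setting could not change its value. Only quantile normalization and the loess curve could move these differences, and part of the 60 was fixed in advance. Scaling shifted the balance of all expressed genes past 0.5, which was 140 lower and 73 higher as deposited, 167 and 52 after quantile normalization, and 172 and 53 after the loess curve. No paired analysis was possible because each title has 1 array, and no array could be left out. Near the level for expression signal over background limits what can be seen, and a difference in total RNA per cell would not show after the authors' scaling.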

Other observations

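The 3 expressed genes outside the lists whose difference lay nearest to that of Cxcl10 were Bach1 (-1.06), a haem-regulated repressor, Hmox1 (-1.03), the haem oxygenase that BACH1 is known to repress, and Gm6958 (-1.01). Likeness was the gap between log2 differences over 2 arrays, which was 0.016, 0.017 and 0.042.

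Probe sets that name several chemokine genes at once were used in no comparison. The set for the Ccl21 genes, ligands of CCR7, differed by -0.10, the set for Ccl19 and its copies by 0.01, and the 2 sets for the Ccl27 genes by -0.06 and -0.04. All 4 were close to or under the level for expression, with levels from 5.92 to 6.67 on the array titled mir155KO and from 5.98 to 6.76 on the array titled mir155WT.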
